A study of Bombyx mori with 12 samples.

Results

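The fat body is the insect organ that does the work of liver and adipose tissue: it stores lipid and glycogen, makes most of the proteins of the haemolymph and takes part in the breakdown of juvenile hormone, the hormone that keeps a larva larval. Adipokinetic hormone, a peptide released from the corpora cardiaca, acts on fat body cells through its receptor AKHR and mobilises these stores. Here the transcript profile of the fat body of the silkworm Bombyx mori was set against those of 6 other tissues of the same larval stage. The members are 7 of the 12 arrays of the series, namely the single arrays of fat body, prothoracic gland, brain, midgut, epidermis, Malpighian tubule and salivary gland, chosen because each is 1 array of a tissue taken on day 2 of the 4th larval instar. The gland complex of corpora cardiaca and corpora allata (CC-CA) was left out as a comparator, and its 2 arrays of that day, from separate experiments, served as the measure of replicate error.

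All larvae were of the commercial strain Kinsyu x Showa, untreated, and fed on mulberry leaves. The labels name no mutant, transgene or treatment for any tissue, and give neither the sex nor the number of larvae behind a sample. RNA was amplified linearly, labelled with Cy3 and hybridised in 1 colour to a custom Agilent array. Every level below is the log2 of the processed spot signal minus the 75th percentile of the same array, so a level of 0 is the 75th percentile and a difference of 2 is 4-fold. With 1 array per tissue no test between tissues was possible, differences are described, and a difference of at least 4-fold was counted. In a whole-tissue sample, fewer cells of a type and less transcript per cell cannot be told apart.

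The fat body array was the dimmest of the 7. Its 75th percentile of processed signal was 1402, against 2233 to 4251 on the other 6, and 60.4% of its spots were well above background, against 63.9% to 69.4%. The lowest level that was well above background was -5.02 in fat body and lay between -6.55 and -5.91 in the other tissues. Signals below such a floor were set to it, and a fold against a tissue below background is written "at least". The brightest 1% of probes held 42.9% of the summed signal in fat body and 35.8% to 40.5% in the other tissues. The number of arrays limits the precision.

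The label was compared with marker genes of the tissues. The 4 brain markers, both markers each of midgut, Malpighian tubule, salivary gland and prothoracic gland, and the CC-CA markers were not well above background on the fat body array. Of the 2 epidermis markers, BmorCPR40 was not well above background and BmorCPG13 was, at -3.67 against 6.47 in epidermis. The marker lists were chosen with earlier results of these data known, so low fat body signals can be partly built in. The prothoracic gland markers were dim in their own tissue, with a summed level of -2.82, so their absence from the dimmest array shows little. The fat body markers AKHR and BmorCPG18 had a summed level of 3.43 in fat body, of -1.52 in epidermis and of -5.49 to -4.26 in the other 5, but they had been picked for this pattern in these data and do not check the label. Storage proteins, lipophorins and antibacterial peptides, the classical products of the organ, are not among the gene names on the array and were not analysed here.

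Fat body differed at least 4-fold from every other tissue at many probes. Against prothoracic gland 3451 of 28744 probes well above background on either array were higher in fat body (12.0%) and 1348 were lower (4.69%). Against salivary gland 4446 of 29235 were higher (15.2%) and 2583 lower (8.84%). These were the smallest and the largest total among the 6 comparisons.

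The remaining totals lay between them. Against brain 3947 probes were higher (13.2%) and 2415 lower (8.05%), and against midgut 3532 were higher (11.9%) and 2472 lower (8.35%). Against Malpighian tubule 3604 were higher (12.1%) and 1989 lower (6.68%). Against epidermis the directions were nearly even, with 3068 higher (10.1%) and 2913 lower (9.64%).

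The replicate CC-CA arrays differed by this much at far fewer probes, 357 in one direction (1.13% of 31591) and 140 in the other (0.443%). The median absolute difference between them was 0.36 on the log2 scale and the 95th percentile 1.11, and a difference below 1.11 is called within the replicate spread. By contrast the median absolute difference between fat body and another tissue ran from 0.77 to 1.01. Those replicates came from other tissue and different slides, so they stand for the error of fat body only on the assumption that it varied alike.

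**Figure D1:**
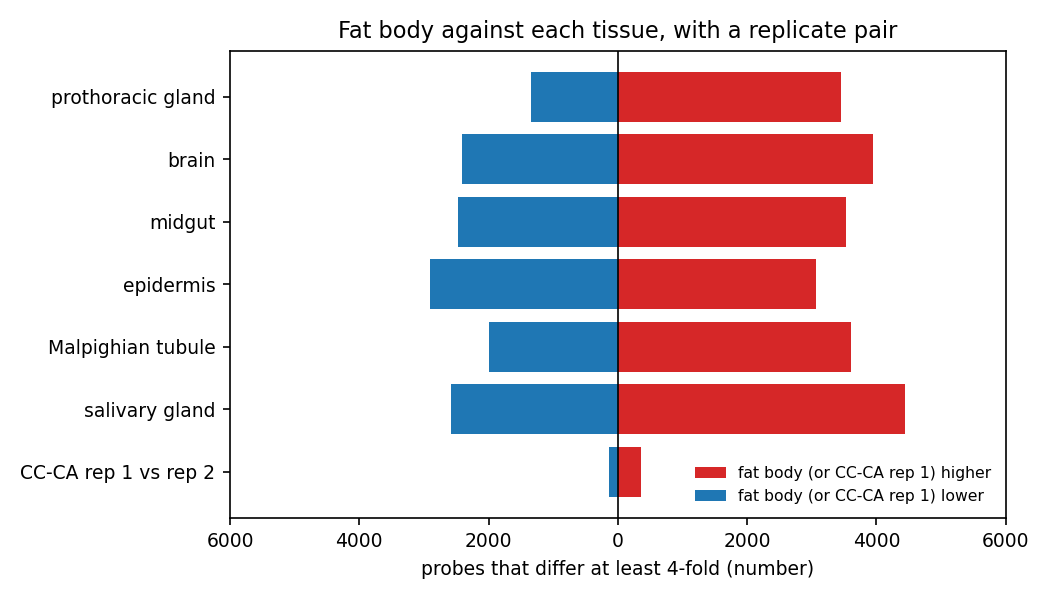
Number of probes (horizontal axis) with a signal at least 4-fold higher (red, right) or lower (blue, left) in fat body than in each of 6 tissues, and for CC-CA replicate 1 against replicate 2 in the lowest row. Each tissue row holds between 4799 and 7029 probes, and the replicate row holds 497.

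The split between directions moved with the scaling of the arrays. On the values as the authors scaled them, the share of these probes that were higher in fat body was 49.3% in place of 71.9% for prothoracic gland, 49.3% in place of 64.4% for Malpighian tubule and 30.8% in place of 63.3% for salivary gland. With a 2-fold threshold it was 52.4% for prothoracic gland and 53.6% for Malpighian tubule. For salivary gland it was 73.5% at 8-fold and 52.7% where only probes measured above background in every tissue were counted. The directions of these totals therefore rest on the scaling and the threshold.

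The correlation with fat body was first taken across the 34704 probes well above background on any of the 7 arrays. It was 0.828 for prothoracic gland, 0.811 for Malpighian tubule, 0.804 for epidermis, 0.784 for salivary gland, 0.754 for brain and 0.745 for midgut. Over the 22003 probes measured above background in every tissue it was 0.850 for epidermis, 0.839 for prothoracic gland, 0.832 for Malpighian tubule, 0.807 for brain, 0.801 for midgut and 0.776 for salivary gland, so the order of the tissues depends on the probes. Over the 34704 probes the 15 pairs of the other 6 tissues gave r from 0.722 to 0.886, and the CC-CA replicates reached 0.975. These are descriptions across probes of single arrays, which shared the kind of labelling and differed in brightness. Prothoracic gland and brain lay on the same slide as fat body.

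A fat body lead set was formed from the probes well above background in fat body and at least 4-fold above the highest of the 6 other tissues. It held 1344 probes, 5.27% of the 25480 probes well above background in fat body and 3.87% of the 34704 well above background on any of the 7 arrays. They represent 1080 sequence names. The median lead over the next tissue was 3.35 on the log2 scale, 793 probes led by at least 8-fold, 487 by at least 16-fold and 88 by at least 64-fold. No lead probe was saturated in fat body. Counted only where every one of the 7 arrays was well above background, the set was 478 probes.

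Where 2 probes of a sequence were well above background in fat body and at least 1 was in the lead set, both were for 258 sequences and only 1 was for 33, which makes 88.7% with both. The weakest leads inside the threshold were 2.00 and the strongest just outside 2.00 as well, so the set has no gap at its edge. Counted the same way, epidermis led at 1301 probes (4.44% of those well above background there), brain at 937, midgut at 644, salivary gland at 482, Malpighian tubule at 352 and prothoracic gland at 138. Fat body and epidermis thus had the longest lists of the 7.

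The lead probes had a median level of 2.55 in fat body and a range from -3.89 to 8.76. The lower end is set by the rule, since a lead probe must lie at least 4-fold above the brain floor of -5.91. For 173 of the lead probes (12.9%) all 6 comparators were short of the criterion for well above background. The median level of all lead probes was -1.91 in epidermis, -4.57 in Malpighian tubule, -4.79 in prothoracic gland, -4.88 in brain, -5.68 in salivary gland and -5.93 in midgut.

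Epidermis was most often the second tissue of the fat body set. It was the next highest for 630 lead probes (46.9%), followed by brain with 335 (24.9%), midgut with 119, prothoracic gland with 107, Malpighian tubule with 88 and salivary gland with 65. Brain has the highest floor of the 6, and for 179 of its 335 probes it was next only by that floor, against 0 to 8 probes for the other 5 tissues. In epidermis 1092 of the 1344 (81.3%) were well above background, against 49.3% to 64.9% in the other 5 tissues. Of the 748 lead probes with a fat body level of at least 2, 747 were well above background in epidermis, and epidermis was the next highest for 454, brain for 77 and prothoracic gland for 68.

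The levels of the lead probes in epidermis also ran parallel to those in fat body. Over the 1092 probes the gap had a median of 4.25 on the log2 scale with quartiles of 3.16 and 5.26, and the levels correlated at r = 0.886. In the other 5 tissues the same correlation, over the lead probes well above background there, was between 0.371 and 0.526. The rule holds the level in every comparator at least 4-fold below fat body, so the gap and the correlations are partly built in. The same goes for the lead sets of the other tissues. Such a parallel was not limited to this pair, though the other sets were smaller. The same value was 0.863 for the salivary gland lead set in epidermis, where 398 of 482 probes (82.6%) were well above background. It was 0.841 for the Malpighian tubule set in fat body (154 of 352, 43.8%) and 0.825 for the prothoracic gland set in epidermis (63 of 138, 45.7%).

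In the converse direction, of the 1301 probes that led in epidermis, 586 (45.0%) were well above background in fat body, with a median gap of 5.96 and r = 0.550. In prothoracic gland 60.3% of them were well above background and r was 0.656. Whether the epidermis sample held fat body tissue was not tested. Epidermis lay on another slide than fat body, and leaving its array out enlarged the lead set to 1632 probes.

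The 5 arrays that played no part in the choice gave a reading of the lead set on samples outside its rule. At least 4-fold below fat body were 91.7% and 93.2% of the lead probes on the replicate CC-CA arrays of the 4th instar, 92.9% on the array of 5th instar CC-CA (day 4), 91.1% in testis and 90.3% in ovary. Over all 25480 probes well above background in fat body the shares were 11.3%, 13.6%, 16.2%, 23.1% and 15.6% in the same order. Each difference uses the fat body value that chose the probes, so a high share is partly built in. The testis and ovary came from 5th instar larvae 3 days after wandering began. On all 5 arrays together 1042 lead probes (77.5%) kept that distance, and 24 to 36 of the 1344 were higher than in fat body on a given array. Their median levels on these arrays were -2.96 to -2.46, above those of every comparator tissue but epidermis.

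**Figure D2:**
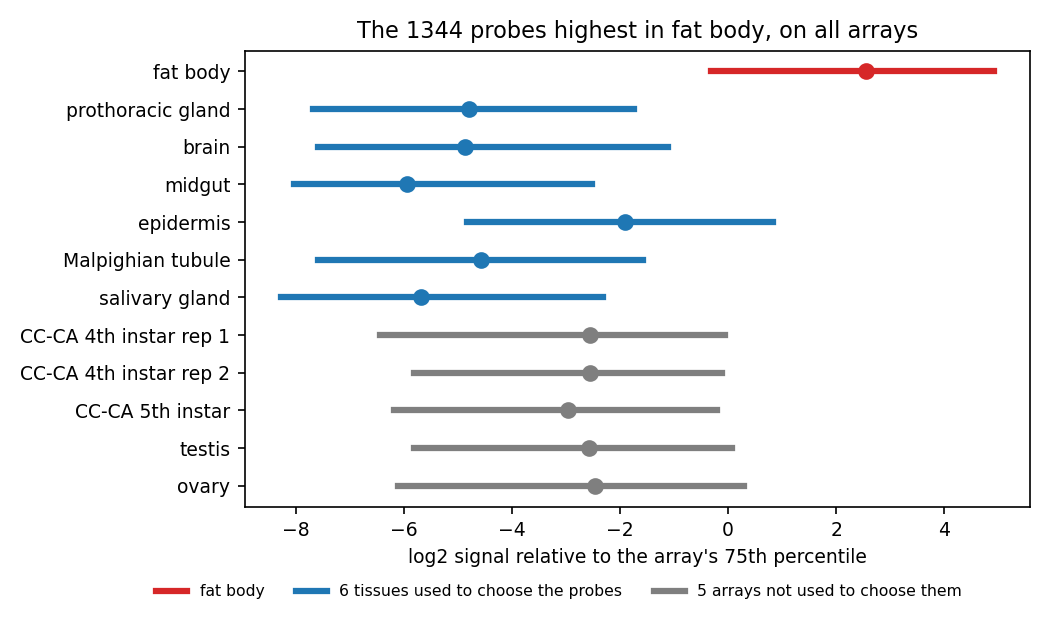
Level of the 1344 lead probes on each of the 12 arrays, as log2 signal relative to the 75th percentile of the array (points, medians; bars, lower to upper quartile). Fat body has a median of 2.55, epidermis comes next with -1.91, and the 5 arrays not used to choose the probes lie between -2.96 and -2.46.

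Most lead sequences carry only clone or gene model names. The longest leads of all belonged to 2 such sequences. MFB-14B18 stood at 3.42 in fat body, at -4.55 in brain and at -4.67 in epidermis, and was not well above background in the other 4 tissues, which made it 251-fold higher than in brain. MFB-14D21 stood at 3.75 in fat body and at -4.11 in epidermis, a 232-fold difference, and was below background in the other 5.

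Clones whose name begins with MFB made up 11.5% of the lead set and 2.48% of the probes well above background in fat body. Of the 632 probes of such clones 155 (24.5%) were in the lead set. Among gene models named BGIBMGA the share was 7.55% (440 of 5824), among clones named fner 11.4%, and among the largest class, fcaL, 3.87% (463 of 11970). The labels and files do not say what these prefixes stand for.

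Of the 346 genes with a name on the array, 242 were well above background on at least 1 of the 7 arrays, 95 were so in fat body, 34 of those were highest in fat body and 13 were in the lead set (13.7% of the 95, beside 5.27% of all probes). Each gene is represented by its probe with the highest mean level over the 7 arrays. The named genes are mostly cuticular proteins, hormone genes and receptors, so they are a narrow sample of the transcripts. For BmorCPH33, BmorCPG11 and JHEH2, 1 probe met the lead criterion but the representing probe did not.

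The receptors AKHR and BNGR-B1 were in the lead set with all 4 probes each. AKHR, the receptor through which adipokinetic hormone acts, stood at -0.23 in fat body, at -5.58 in brain and at -5.90 in epidermis. It was not well above background in prothoracic gland, midgut, Malpighian tubule or salivary gland. Fat body was therefore 40.8-fold above brain, the next tissue, and no other tissue came near it. Over its 4 probes the lead ran from 3.65 to 5.57.

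The peptide genes that encode its ligands are made in the corpora cardiaca. AKH-1 and AKH-2 were not well above background in fat body, and in brain they stood at -4.42 and -3.16.

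BNGR-B1 belongs to the class B, or secretin-like, group of silkworm neuropeptide receptors. It stood at -0.78 in fat body, at -4.61 in midgut, -4.78 in epidermis and -5.35 in Malpighian tubule, and was not well above background in the other 3. Fat body was 14.2-fold above midgut. The 4 probes gave leads from 3.70 to 3.94, so they differed little.

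Of 46 listed neuropeptide and hormone receptors 34 were measured, 18 were well above background in fat body and 9 of these were highest there. The lead set held 2 of the 18. Of the 95 named genes well above background in fat body, 34 were highest there and 13 were in the lead set. BNGR-A1 stood at -0.40 in fat body and at -1.58 in Malpighian tubule, a 2.27-fold difference, while fat body was 6.87-fold above epidermis and 28.6-fold above salivary gland. BNGR-A4 stood at -0.42 in fat body and -0.68 in midgut, a 1.20-fold difference that lies within the replicate spread, and was 18.2-fold lower in Malpighian tubule. Both belong to the class A, or rhodopsin-like, group.

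The brightest listed receptors of the organ were not particular to it. BNGR-A27 stood at 1.38 in fat body, below midgut (2.87) and epidermis (2.86), within the replicate spread of Malpighian tubule (1.53) and brain (0.92), and above prothoracic gland (0.14) and salivary gland (-0.08). BNGR-A14 stood at 0.96, highest in fat body but only 1.46-fold above midgut, and BNGR-A10 at 0.14, below brain (1.72) and Malpighian tubule (1.44). BNGR-B3, of class B, stood at -0.31 in fat body and 5.28-fold higher in midgut.

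At least 4-fold higher in fat body were 11 of the 21 listed receptors tested against prothoracic gland (median difference 2.08), with 0 lower. Against salivary gland 11 of 22 were higher (1.97) and 2 lower. Against brain 8 of 28 were higher and 4 lower (median 0.55), against midgut 6 and 2 of 27 (-0.04), against epidermis 6 and 0 of 25 (0.69) and against Malpighian tubule 9 and 2 of 23 (0.96). Over all probes the share higher ran from 10.1% to 15.2% and the share lower from 4.69% to 9.64%, and the median difference from the 6 tissues ran from -0.13 to 0.17. The list left out the receptor genes BMSR, BRFaR and SIFR, all well above background in fat body. BMSR was 6.04-fold lower in fat body than in prothoracic gland but 5.06-fold above epidermis. BRFaR was 5.71-fold lower than in epidermis, and SIFR was highest in fat body, 1.30-fold above midgut.

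**Figure D3:**
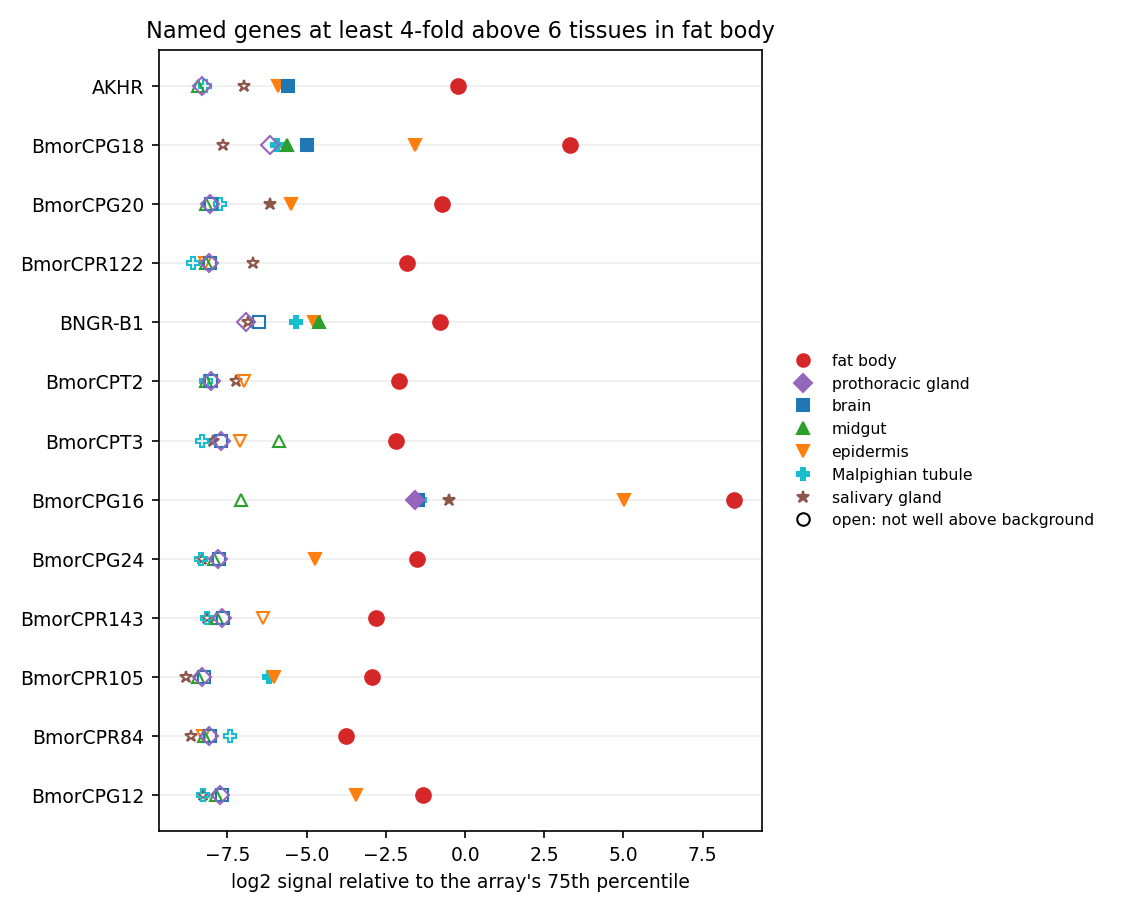
Level of the 13 named genes of the lead set in the 7 tissues, as log2 signal relative to the 75th percentile of the array, with open symbols for signals not well above background. Fat body (red circles) lies to the right in every row, from -3.74 for BmorCPR84 to 8.50 for BmorCPG16, and epidermis (orange) is the next tissue above background for 5 glycine-rich genes.

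Cuticular proteins are the structural proteins of the exoskeleton and are classed by sequence, RR-1 and RR-2 by the type of chitin-binding Rebers-Riddiford motif, others as glycine-rich (CPG), Tweedle (CPT) or hypothetical (CPH). Of the 13 named genes in the lead set 11 carry such names, as do 51 of the 95 named genes well above background in fat body. The glycine-rich group gave 5 of them, out of 28 measured and 13 well above background in fat body. Beside these 5 of 13 stand 13 of the 95 named genes and 5.27% of all probes.

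BmorCPG16 was the brightest named gene of the fat body, with its probe at rank 80 of 42340. It stood at 8.50 in fat body, at 5.02 in epidermis, -0.51 in salivary gland, -1.41 in Malpighian tubule, -1.47 in brain and -1.59 in prothoracic gland, and was not well above background in midgut. Fat body was 11.2-fold above epidermis, 513-fold above salivary gland and 1086-fold above prothoracic gland. Both probes gave the same order.

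BmorCPG18 stood at 3.31 in fat body, at -1.59 in epidermis, -5.00 in brain, -5.63 in midgut and -5.94 in Malpighian tubule, and below background in prothoracic gland and salivary gland. It led by 29.9-fold over epidermis. As with BmorCPG16, epidermis was the nearest tissue by far.

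The other 3 members in the lead set were dimmer and had the same next tissue. BmorCPG20 stood at -0.73 in fat body and at -5.50 in epidermis, a 27.2-fold difference, with salivary gland at -6.16, BmorCPG24 at -1.50 and -4.74 (9.43-fold), and BmorCPG12 at -1.34 and -3.44 (4.28-fold). BmorCPG12 and BmorCPG24 were below background in every tissue but these 2, and the lead of BmorCPG12 was 1.83 with normexp. BmorCPG20 was not confined to fat body in the series: it stood at 2.75 in ovary and 0.69 in testis, both above fat body.

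Most other tested members of the glycine-rich group were lower in fat body than in epidermis. Of 27 tested, 16 were at least 4-fold lower and 6 were higher, with a median difference of -3.71, beside 9.64% lower and 10.1% higher over all probes and 74 lower and 26 higher of 175 named genes. BmorCPG9, BmorCPG11 and BmorCPG26 were highest in fat body outside the lead set and not well above background in epidermis. Another probe of BmorCPG11 met the lead criterion. BmorCPG4, at 0.11 in fat body and 8.09 in epidermis, was 253-fold lower, and BmorCPG17 stood at -1.32 and 7.41. Against Malpighian tubule and midgut the direction was the opposite, with 12 of 16 and 10 of 14 members higher in fat body (12.1% and 11.9% of all probes).

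The RR-1 group had no member that was highest in fat body, beside 34 of the 95 named genes well above background there. Of 41 measured members 14 were well above background in fat body, and 27 of 35 tested were at least 4-fold lower there than in epidermis with 0 higher (median difference -5.99), beside 9.64% of all probes and 74 of 175 named genes lower. BmorCPR42, the brightest, stood at 3.98 in fat body and 7.47 in epidermis, an 11.3-fold difference, and at 3.75 in midgut and 3.04 in prothoracic gland. BmorCPR4 stood at 2.11 in fat body and 41.6-fold higher in epidermis. BmorCPR46 and BmorCPR2 stood at 1.36 and 0.91 in fat body and at 7.66 and 7.01 in epidermis. The nearest to a lead was BmorCPR51, at -0.96 in fat body and -0.57 in midgut.

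The RR-2 group was dim in fat body. Of 92 listed genes 41 were measured and 11 were well above background there, none above -1.82. Of these 11, 6 were highest in fat body, beside 34 of the 95 named genes well above background there. The lead set held 4 of the 11, beside 13 of those 95 and 5.27% of all probes. BmorCPR122 (-1.82), BmorCPR143 (-2.82), BmorCPR105 (-2.93) and BmorCPR84 (-3.74) were in the lead set, by at least 17.1-fold, 8.54-fold, 7.89-fold and 4.50-fold. BmorCPR105 was also well above background in epidermis (-6.02) and Malpighian tubule (-6.19), where it lay below the floor of brain that set its bound, and BmorCPR143 led with 1 of its 2 probes. BmorCPR96, at -2.65, had a higher level than these last 3 but stood only 3.40-fold above prothoracic gland. The lead of BmorCPR84 fell under 4-fold on the authors' scaling (1.65 on the log2 scale), with normexp (1.72), with quantile normalisation (1.94) and when scaled on probes above background on all 7 arrays (1.93), and that of BmorCPR143 with normexp and with the median over its probes (0.82).

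The Tweedle genes BmorCPT2 (-2.09) and BmorCPT3 (-2.18) were not well above background in any of the 6 tissues and led by at least 14.2-fold and 13.0-fold with both probes. Their relative BmorCPT1 stood at -3.85 in fat body and 6.17 in epidermis, so the family was split. BmorCPFL1, of the CPF-like group listed with them, stood at -2.77 and 7.05. Of the 4 genes of this list well above background in fat body 2 were in the lead set, beside 13 of the 95 named genes. Of 23 measured hypothetical cuticular proteins 9 were well above background in fat body. None of these 9 was in the lead set by its representing probe, beside 5.27% of all probes well above background there. The count says little about the group, and another probe of BmorCPH33 met the lead criterion. BmorCPH34 (0.89), BmorCPH24 (0.14) and BmorCPH25 (-1.20) stood at 7.77, 7.26 and 8.05 in epidermis, and BmorCPH27 (-0.30) was highest in salivary gland (1.23).

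**Figure D4:**
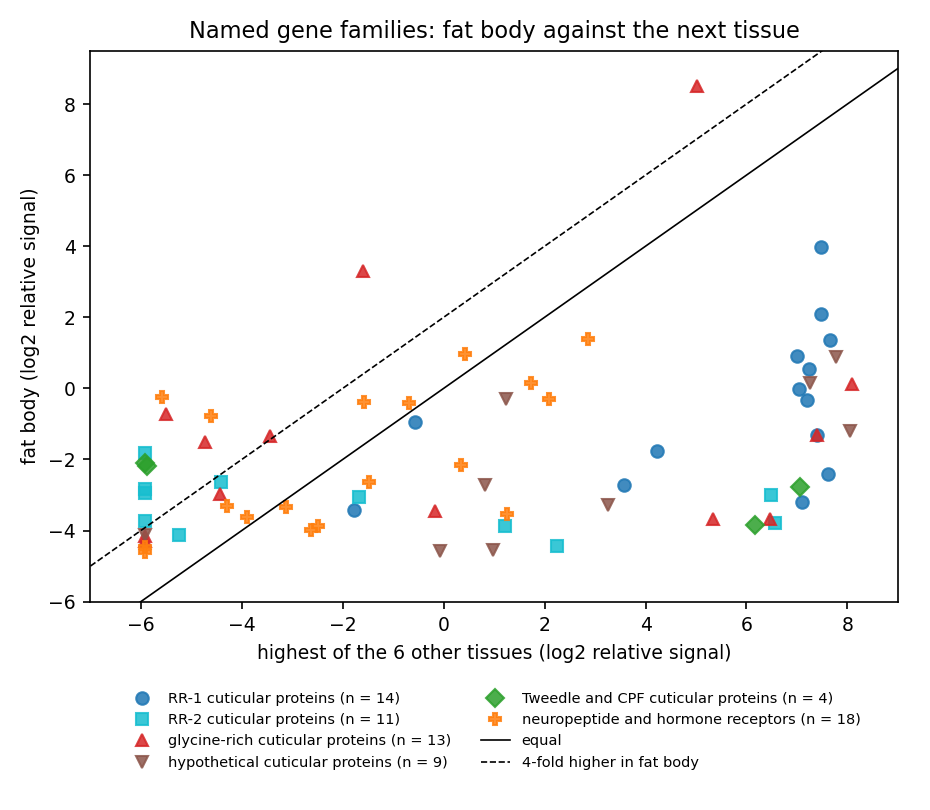
Fat body level against the highest level among the 6 other tissues for the named genes well above background in fat body, by family, both as log2 signal relative to the 75th percentile of the array. Points above the dashed line are at least 4-fold higher in fat body: BmorCPG16 stands alone at the top, while the RR-1 genes lie below the line of equality, 10 of them at levels above 7 in the other tissue.

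Juvenile hormone is broken down by juvenile hormone esterase (JHE) and by epoxide hydrolases (JHEH), and carried in the haemolymph by binding proteins (jhbp). The list of these genes held 21, of which 20 were measured and 11 were well above background in fat body. Of those 11, 5 were highest there, beside 34 of the 95 named genes. None was in the lead set by its representing probe, beside 13 of those 95 and 5.27% of all probes well above background in fat body. In a list this short, a count of none says little. The largest lead among those 5 was 1.14 on the log2 scale, again by the representing probe. Another probe of JHEH2 met the lead criterion.

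Among the epoxide hydrolases, JHEH0 stood at 3.70 in fat body, 3.16 in midgut, 1.75 in prothoracic gland, 1.54 in Malpighian tubule, 1.12 in brain, 0.81 in epidermis and -1.04 in salivary gland. Fat body was 1.45-fold above midgut, within the replicate spread, and 26.7-fold above salivary gland. JHEH5 also had midgut and fat body at the upper end, with 1.03 in midgut, 0.99 in fat body, -0.35 in brain and -2.21 to -1.29 in the other 4. JHEH3 ran from -4.14 in salivary gland to -2.03 in brain, with fat body between them.

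JHEH4 and JHEH1 were not well above background in fat body and stood at 3.87 in midgut and at -2.31 in prothoracic gland. JHEH2 was highest in fat body at -4.80 on its representing probe, close to the floor. Another of its probes met the lead criterion, and no lead probe lay below -3.89 in fat body.

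JHE itself stood at -1.40 in fat body and at 0.21 in prothoracic gland, so fat body was 3.05-fold lower than that gland. It was 4.10-fold above midgut, 4.84-fold above Malpighian tubule, 6.61-fold above brain, 7.69-fold above epidermis and 14.8-fold above salivary gland. Of its 4 probes 2 were well above background in fat body. Fat body was thus the second of the 7 tissues for this enzyme.

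The JHE-related genes differed among themselves. JHE-r4A stood at 1.92 in fat body and 1.69 in midgut, a 1.17-fold difference, and at -0.20 to 1.15 in the others. JHE-r3 was highest in fat body but only 1.19-fold above epidermis, which stood at -4.26. JHE-r5AL stood at -4.50 in fat body, 81.0-fold lower than in midgut and 48.6-fold lower than in Malpighian tubule. JHE-r1 and JHE-r2 were not well above background in fat body.

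Of 9 binding protein genes on the list, 3 were well above background in fat body. The gene named jhbp-wds30639 stood at 3.54, within a range of 2.67 in salivary gland to 3.93 in midgut, so all 7 tissues held it at a similar level. The gene named jhbp-brp2095 stood at -4.33 in fat body and was 574-fold higher in epidermis, at 4.83. The gene named jhbp-e96h0303 stood at -4.59, near the floor.

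The other 6 were not well above background in fat body. In salivary gland jhbp-an0128 reached 5.38 and jhbp-brp1649 reached 3.94, and in epidermis jhbp-an0921 and jhbp-an147 reached 3.53 and 2.58. The gene named jhbp-an0895 was not well above background in any of the 7 tissues, and jhbp-ce0330 reached -5.48 in salivary gland. Many sequences on the array carry only accession numbers, so the list need not hold every binding protein.

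Against salivary gland 4 of the 16 tested genes of this list were at least 4-fold higher in fat body and 4 were lower (median difference 1.00), beside 15.2% and 8.84% of all probes, and against epidermis 3 and 4 of 15 (0.33), beside 10.1% and 9.64%. Against brain the counts were 3 and 0 of 14 (13.2% and 8.05% of all probes), and against prothoracic gland 1 and 1 of 15 (12.0% and 4.69%). Against midgut they were 2 and 2 of 13 (11.9% and 8.35%), and against Malpighian tubule 4 and 3 of 14 (12.1% and 6.68%). Kr-h1, a transcription factor gene that juvenile hormone switches on, stood at -1.84 in fat body on the probe named BmKr-h1a, within a range from -2.98 in brain to -1.65 in prothoracic gland.

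**Figure D5:**
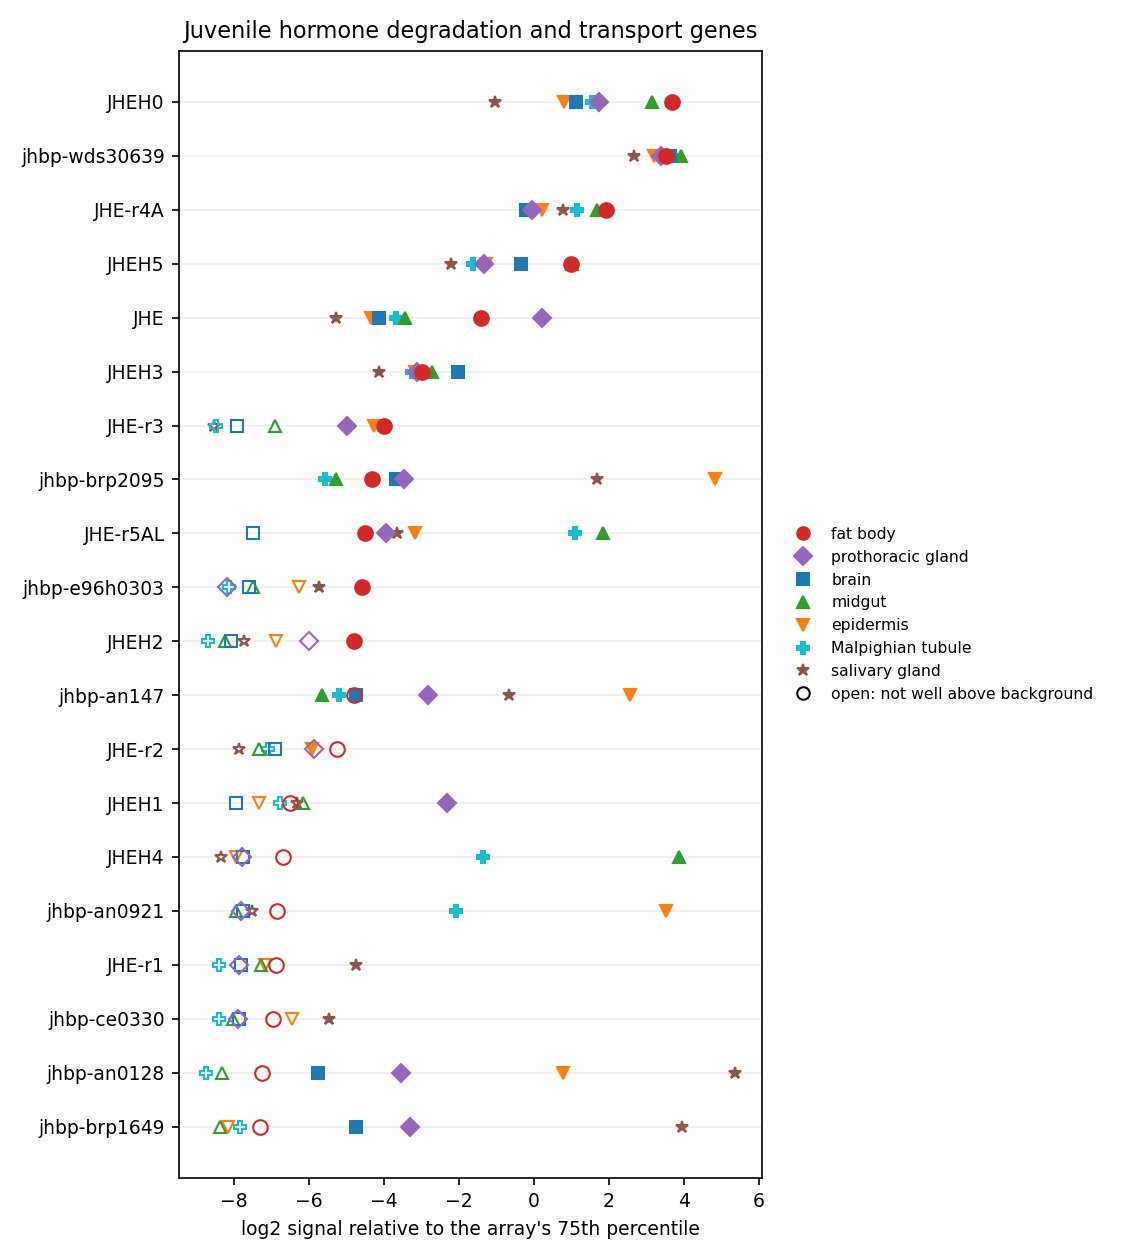
Level of the 20 measured juvenile hormone degradation and transport genes in the 7 tissues, ordered by the fat body level, as log2 signal relative to the 75th percentile of the array, with open symbols for signals not well above background. Fat body (red circles) is at the right edge for JHEH0 and JHE-r4A with midgut close by, second for JHE, and far left of epidermis or salivary gland for most binding proteins.

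Few probes were low in fat body alone. Of the 23125 probes well above background in all 6 other tissues, 39 (0.169%) were at least 4-fold lower in fat body than in the lowest of them, and 11 were at least 8-fold lower. They represent 30 sequence names, none of them a named gene, and 27 of the 39 were still well above background in fat body. The median gap was 2.54 on the log2 scale and the largest 4.34. The same count was 208 for salivary gland, 156 for midgut and 153 for brain. It was 42 for Malpighian tubule, 28 for prothoracic gland and 17 for epidermis. The floor was -5.02 in fat body and -6.55 to -5.91 in the others, so the call was harder to meet in fat body. The other tissues were not recounted without a floor, so the order of the tissues is not settled. The fat body count was 84 with no floor, 67 on the authors' scaling and 16 with normexp. It was 71 without brain, 67 without midgut and 78 without salivary gland among the comparators.

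The largest gaps belonged to 2 clones, each with both probes in the set. The clone fcaL-P14_F_J04 stood at -1.44 in fat body, at 2.90 in midgut, 2.98 in brain, 2.99 in prothoracic gland, 3.17 in Malpighian tubule, 4.67 in epidermis and 4.83 in salivary gland. That put fat body 20.3-fold below midgut, the lowest of the others. The clone fcaL-P35_pT_H20_RevCom stood at -0.75 in fat body and between 3.45 in brain and 5.24 in salivary gland, 18.4-fold apart from the lowest. On the 5 arrays that played no part in the choice, both clones stood at 3.18 to 4.64, so fat body was the lowest of the 12 arrays for both. The next gaps were 3.89 for fcaL-P08_pT_H14_RevCom, 3.80 for MFB-13J09, 3.78 for BGIBMGA004612 and 3.77 for fcaL-P17_pT_J16_RevCom. All of these also had epidermis and salivary gland as the highest tissues. Whether these names share a transcript was not tested, so the 30 names need not be separate transcripts.

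Among named genes the nearest to this pattern was trh, which was chosen after its values were seen. It stood at -0.48 in fat body, 0.87 in brain, 1.85 in salivary gland, 2.27 in midgut, 2.56 in prothoracic gland, 2.70 in epidermis and 4.10 in Malpighian tubule. Fat body was the lowest, by 2.56-fold against brain and by 5.03-fold to 24.0-fold against the other 5. Of its 4 probes 2 were well above background in fat body.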

How the data were processed

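Transcripts were measured on 12 one-colour Agilent arrays, of which 7 tissues of the 4th instar were compared. The deposited scanner files give spot intensity: per the submitters' processing notes it came from Agilent Feature Extraction 9.5.3.1, and per the file headers the background was subtracted and high-gain and low-gain scans were combined. The deposited value table holds the same intensity divided by 1 constant per array, so its scale is linear and its centring is unknown. Control spots (45220 spots less 43803) and outlier flags were left out, spots of a probe were averaged, and 224 of 42564 probes without a value on some array were dropped.

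Levels were log2 of the processed signal minus the 75th percentile of the array, with a floor at its lowest signal well above background. Alternatives were no floor, a common floor, 3 other scalings, normexp (offset 50), other filters and 2-fold and 8-fold thresholds. Normexp used the median signal, since the files hold no mean signal. R 4.3.3 with limma 3.58.1 and data.table version 1.17.8, and Python 3.11.15 with pandas 2.3.3, numpy 2.4.6 and matplotlib 3.10.9 were used, and the counting was tested on simulated arrays.

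The arrays lay on 3 slides of 4: prothoracic gland and brain shared that of fat body, midgut and salivary gland lay on the second, and epidermis and Malpighian tubule on the third. Slide and tissue can therefore not be told apart for the last 4. Named genes were the markers, the named lead genes by size of lead, all members of the juvenile hormone degradation and adipokinetic lists, and of each other list the 4 brightest in fat body and the 2 with the largest lead, plus the 2 unnamed sequences farthest above and below. The members and lists were chosen with earlier results of these data known. Among the array's 32372 sequence names 418 name a gene (346 genes in all). Of the transcript accessions among the names 6 were found in the RefSeq gene table and named from it, and any not found were not counted. The planned lists of secreted proteins, immune peptides, energy stores and detoxification matched 0 names.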

Additional observations from a re-analysis of the deposited data

Results flagged for a closer look

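BmorCPG20, a glycine-rich cuticular protein gene of the fat body lead set, was flagged for its signal on arrays that took no part in the comparison. On the testis array it lay 1.42 above fat body on the log2 scale (0.69 against -0.73), and on the ovary array 3.49 above (2.75 against -0.73). These arrays came from 5th instar larvae after wandering began and lay on another slide, so stage, tissue and slide cannot be told apart.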

How the results depend on the processing

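No paired analysis was possible because each tissue has 1 array. The fat body lead set of 1344 probes stayed between 1042 and 1660 under 15 alternatives, among them 1152 (1125 of them shared) on the deposited value table, 1169 with quantile normalisation and 1413 to 1632 without 1 of the 6 tissues. It was 478 with only probes well above background on all 7 arrays, 2437 at 2-fold, 793 at 8-fold, and 2761 against the 2 tissues on its own slide. The low set of 39 was 84 with no floor, 16 with normexp, 67 (34 shared) on the value table, 461 at 2-fold, 11 at 8-fold, 419 and 126 against tissues on its own or on other slides, 71 without brain, 67 without midgut and 78 without salivary gland.

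The pairwise totals, in the order prothoracic gland, brain, midgut, epidermis, Malpighian tubule and salivary gland, were 4799, 6362, 6004, 5981, 5593 and 7029. They became 2314, 3004, 2842, 2496, 2578 and 3974 with probes well above background on all 7 arrays. At 2-fold they became 11395, 14538, 12547, 12202, 12521 and 14702. At 8-fold they became 2829, 3690, 3798, 3748, 3315 and 3844. The other 42 of 60 alternatives stayed within 1.5 times. The cause of the moves on the value table and with normexp was not tested; the thresholds, filters and tissue subsets change the counts by construction. On the value table the median difference of all probes shifted to -0.70 for prothoracic gland, -0.44 for Malpighian tubule and -0.85 for salivary gland.

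Of 78 combinations of the 13 named lead genes with 6 alternatives, 71 kept a lead of at least 4-fold and none reversed. BmorCPR84 (4 alternatives), BmorCPR143 (2) and BmorCPG12 (1) fell under it, to 0.82 at the lowest. Fat body had the dimmest array, so its floor limits how low a level can be measured there.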
